A study of Mus musculus with 6 samples.

Results

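Release of neurotransmitter from synaptic vesicles depends on a shared set of proteins, and 53 genes of this machinery were followed in the embryonic mouse cochlea with and without a block of Notch signaling. The 53 genes were chosen by their known function, as vesicular glutamate transporters, calcium sensors, SNARE proteins, active zone scaffolds and vesicle proteins. The choice was made with earlier results of these data known. Of the 53 genes, 49 were measured here, out of 20259 genes in all. *Cabp5*, *Vamp1*, *Stx3* and *Cplx3* lay only on transcript clusters that carry the names of several genes and were not measured here.

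Cochlear ducts were removed from wild type embryos at E15.5 and were cultured either with 3.33 µM DAPT, a γ-secretase inhibitor that blocks cleavage of Notch receptors, or with 0.013% DMSO as vehicle control. The tissue in culture still held the neurons that supply the duct. There were 3 experiments, each with 1 DAPT pool and 1 control pool of explants, with culture times of 23, 19 and 24 hours in experiments 1, 2 and 3 by the sample labels, while other descriptions of the study give somewhat different times. The epithelium was purified with collagenase and dispase at the end of the culture, and its RNA was hybridized to 6 Affymetrix Mouse Exon 1.0 ST arrays. The study calls the tissue wild type, while its culture method names embryos with a *p27/GFP* transgene. Its mice were of both sexes and of mixed C57BL/6 and CD-1 background. Each array stands for a pool of explants, and the inhibitor also acts on γ-secretase substrates other than Notch receptors. Values are log2 signals of transcript clusters, so that a difference of 1 is a doubling.

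Hair cells (HCs) and neurons both release glutamate from vesicles, but with partly different parts. The inner HC holds its vesicles at an electron-dense ribbon built largely of Ribeye, a product of the *Ctbp2* gene, fills them through VGLUT3 (*Slc17a8*), and uses otoferlin (*Otof*) as a calcium sensor for release. Neurons fill vesicles mainly through VGLUT1 (*Slc17a7*) or VGLUT2 (*Slc17a6*), use synaptotagmin 1 or 2 as the fast calcium sensor, and fuse vesicles through the SNAREs synaptobrevin (*Vamp2*), syntaxin 1 (*Stx1a*) and SNAP-25. At E15.5 HCs are only beginning to differentiate, and ribbon synapses mature later. The members were therefore read as 9 ribbon synapse genes, 24 neuronal vesicle genes and the remaining 16.

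Cell type markers set the frame for these genes. All 16 HC markers were higher with DAPT at an unadjusted p under 0.05, with a median log2 difference of 0.61, and their summed linear signal was 10901 to 13347 in DAPT arrays, against 5987 to 7729 in control arrays. Of 12 markers of supporting cells (SCs) and pro-sensory cells, 9 were lower and 1 higher at the same line, with a median of −0.67, and sums of 10544 to 15748 with DAPT, against 17632 to 20332 in controls. The 9 lower genes were *Sox2*, *Jag1*, *Hes5*, *Hey1*, *Hey2*, *Heyl*, *Lfng*, *Prox1* and *Fgf20*, most of them known Notch pathway or pro-sensory genes, whereas *S100b* was nominally higher at 0.31 and *Fgfr3* and *Cdkn1b* differed by −0.07 and −0.25. Several genes of both lists also stand in tables that the study drew from these arrays, so their directions are no independent evidence. None of the 22 neuronal markers passed that line in either direction, with a median of 0.04. Their sums in experiments 1, 2 and 3 were 6914, 11204 and 11571 with DAPT, against 6113, 10477 and 11653 in controls. The summed signal of neuronal markers in the purified epithelium was thus lowest in experiment 1 in both groups. This did not hold for every marker, as *Uchl1* was highest in experiment 1 among the DAPT arrays. Of the 22 markers 10 lay above the median signal of genes and 12 below it. Of the glial, mesenchymal, vascular and macrophage lists, with 8, 10, 10 and 8 measured genes, 0, 0, 1 and 1 genes were higher and 1, 1, 2 and 0 were lower at that line. Over all genes 5.27% were higher and 2.59% lower at that line. In pooled tissue a change in the number of cells of a type and a change in RNA per cell cannot be told apart.

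**Figure D1:**
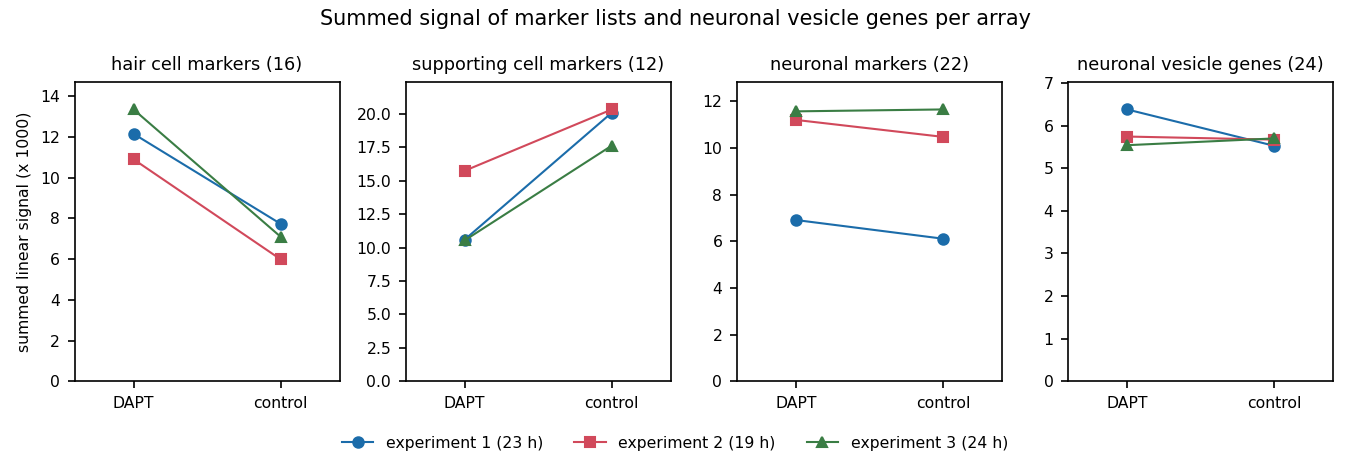
Summed linear signal (in units of 1000) of the HC, SC and neuronal marker lists and of the 24 neuronal vesicle genes, for DAPT and control arrays, with 1 line for each of the 3 experiments. The HC sums lie higher with DAPT in every experiment and the SC sums lower, while the sums of neuronal markers differ more between experiment 1 and the other experiments than between DAPT and control. The sums of neuronal vesicle genes differ most between DAPT and control in experiment 1.

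Otoferlin and the HC glutamate transporter stood at the upper end of the release genes with DAPT, and most of the other genes differed little from control. With the experiment as a block, 6 of 49 members (12.2%) were higher with DAPT at an unadjusted p under 0.05, beside 5.27% of all 20259 genes. At the same line 3 members (6.12%) were lower, beside 2.59% of all genes. No member and 0% of all genes passed an adjusted p of 0.05 in limma, with a lowest adjusted p of 0.203 among members and 0.0591 among all genes, while 1592 genes passed the unadjusted line. "Nominally" is used below for genes past the unadjusted line alone, and none of these differences stands after adjustment over all genes. The 6 nominally higher genes were *Otof*, *Slc17a8*, *Rims2*, *Slc17a6*, *Syt13* and *Syt7*, and the 3 nominally lower genes were *Syt6*, *Ctbp2* and *Lin7a*. The other 40 members had differences between −0.26 and 0.21. Of the nominal genes *Slc17a8*, *Rims2*, *Slc17a6*, *Syt6* and *Lin7a* had mean signals below the median signal of genes, 7.7849.

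Read by direction alone, 14 members (28.6%) were higher with DAPT in all 3 experiments, beside 19.1% of all genes, and 5 (10.2%) were lower in all 3, beside 10.5% of all genes. The remaining 30 had mixed directions. In 40 of the 49 genes the mean difference was smaller than 0.25 in either direction, beside 18719 of all 20259 genes. The median over members was 0.04, beside 0.02 over all genes.

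**Figure D2:**
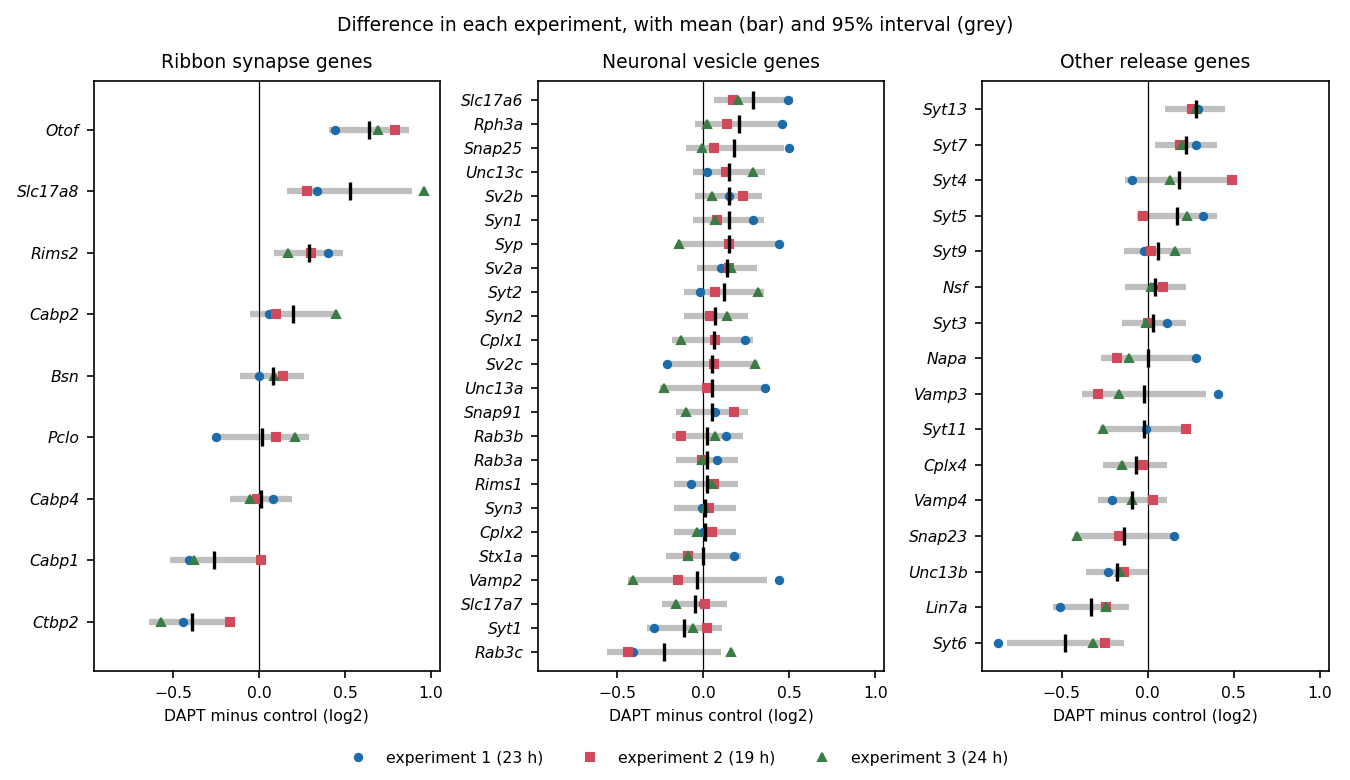
Difference in log2 signal, DAPT minus control, for the 49 members in their 3 lists, with 1 point per experiment, a black bar at the mean and a grey band for the 95% interval of the blocked limma fit. *Otof* and *Slc17a8* lie farthest to the right and *Syt6* and *Ctbp2* farthest to the left, while the bands of 40 members include 0.

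*Otof* had the largest difference of the 49 genes in the upward direction. Its log2 signals were 8.86, 8.51 and 9.32 with DAPT in experiments 1, 2 and 3, against 8.43, 7.71 and 8.63 in the controls. Every DAPT array exceeded the control of its own experiment, but the groups overlapped, because experiment 2, with the shortest culture by the labels, was the lowest in both. The mean difference was 0.64 ± 0.09 (SE), a 1.56-fold higher linear signal, with a 95% interval of 0.41 to 0.87 on the log2 scale (limma unadjusted p = 0.000592, adjusted p = 0.203). *Otof* also stands in a gene table that the study drew from these arrays, so its direction is no independent evidence. Without the block the difference missed the unadjusted line (unadjusted p = 0.0578). It also missed the line in the plain one-way comparison and passed it in the plain paired comparison (unadjusted p = 0.153 and 0.0265). These plain comparisons pool no variance across genes.

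Of the 3 vesicular glutamate transporters, which load vesicles with glutamate, 2 were nominally higher with DAPT, beside 5.27% of all genes. *Slc17a8*, the transporter of inner HCs, had log2 signals of 6.95, 7.09 and 8.28 with DAPT, against 6.61, 6.81 and 7.31 in controls. The DAPT array of experiment 3 stood well above the other 5 arrays, and the remaining DAPT arrays lay within the range of the controls. The mean difference was 0.53 ± 0.15 (SE), or 1.44-fold (limma unadjusted p = 0.0124, adjusted p = 0.435), made of 0.34, 0.28 and 0.96 in the 3 experiments. Without experiment 3 it was 0.31, still nominally higher (unadjusted p = 0.027), and without the block it was not (unadjusted p = 0.187). It also missed the line in the plain one-way and plain paired comparisons, which pool no variance across genes (unadjusted p = 0.326 and 0.139).

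*Slc17a6*, the transporter of many excitatory neurons, had log2 signals of 6.77, 7.11 and 7.14 with DAPT, against 6.28, 6.94 and 6.94 in controls. The experiment 1 arrays were the lowest of their groups, and the groups overlapped. The mean difference was 0.29 ± 0.09 (SE), or 1.22-fold (limma unadjusted p = 0.0222, adjusted p = 0.507), with 0.49 in experiment 1 and 0.17 and 0.20 in experiments 2 and 3. It was 0.19 without experiment 1 (unadjusted p = 0.0734), and it missed the line without the block (unadjusted p = 0.2). The plain one-way and plain paired comparisons missed it too (unadjusted p = 0.316 and 0.106). The 22 neuronal markers had median differences of 0.09, 0.09 and 0.01 in experiments 1, 2 and 3, and their part in the *Slc17a6* difference was not tested. *Slc17a7*, which marks other excitatory neurons, differed by −0.05 (95% interval −0.24 to 0.14). The direct difference between the transporters was not tested.

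Promoter windows show what lies upstream of these genes. RefSeq windows of the GRCm38.p6 assembly were matched for 37 of the 49 members and for 5 of the 9 nominally different ones, and the 250 bases before each start were searched on both strands for 3 motifs. The first was CAGCTG, which reads alike on both strands. The second was CAGATG, which reads as CATCTG on the opposite strand. Both are E-boxes, of a kind bound by proneural factors such as ATOH1. The third was TGGGAA, with the reverse complement TTCCCA. It is the core of the site bound by RBP-J, the DNA-binding partner of cleaved Notch. The windows of *Slc17a8* and *Slc17a6* are shown because these transporters were nominally higher with DAPT. Each of the genes has 2 annotated starts, and the window that holds a match is printed, 5′ to 3′ on the strand of the gene, with the match in capitals.
Slc17a8, chr10:89599816-89600065, minus strand: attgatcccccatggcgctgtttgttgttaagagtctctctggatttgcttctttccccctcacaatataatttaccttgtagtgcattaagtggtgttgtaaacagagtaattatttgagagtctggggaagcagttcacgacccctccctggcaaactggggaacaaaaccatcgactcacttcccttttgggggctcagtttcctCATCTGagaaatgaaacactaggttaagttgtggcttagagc
Slc17a6, chr7:51624387-51624636, plus strand: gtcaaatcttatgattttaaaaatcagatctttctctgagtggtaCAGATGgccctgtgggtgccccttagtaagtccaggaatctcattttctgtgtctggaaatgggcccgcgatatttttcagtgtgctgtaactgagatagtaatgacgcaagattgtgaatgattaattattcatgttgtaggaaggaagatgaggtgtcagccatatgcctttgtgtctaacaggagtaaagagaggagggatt
In the *Slc17a8* window CATCTG begins 42 bases before the start, and in the *Slc17a6* window CAGATG begins 205 bases before it. The windows of their other starts hold none of the 3 motifs. A match is a description of letters and not a binding site. CAGATG or its complement occurs in 14.4% of all 32851 windows and in 7 of 55 member windows (12.7%), CAGCTG in 13% of all and 13 member windows (23.6%), and TGGGAA or its complement in 21.6% of all and 9 member windows (16.4%).

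The calcium-binding proteins CABP1, CABP2 and CABP4 are calmodulin-like partners of voltage-gated calcium channels that slow the inactivation of HC calcium currents. *Cabp2*, required for normal hearing, had log2 signals of 7.72, 7.67 and 8.51 with DAPT, against 7.66, 7.57 and 8.07 in controls. Experiment 3 was the highest in both groups, as for *Slc17a8*, and the mean difference of 0.20 did not pass the line (limma unadjusted p = 0.0967, adjusted p = 0.707). *Cabp1* had signals of 7.03, 7.80 and 7.45 with DAPT, against 7.45, 7.79 and 7.82 in controls. It was lower in experiments 1 and 3 and level in experiment 2, with a mean difference of −0.26 (limma unadjusted p = 0.0525, adjusted p = 0.638). *Cabp4* had signals of 6.47, 6.50 and 6.44 with DAPT, against 6.39, 6.50 and 6.49 in controls, a difference of 0.01 (95% interval −0.17 to 0.19) that turned to −0.01 under median centring.

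Scaffolds of the presynaptic active zone went both ways. *Rims2* encodes a RIM protein that tethers calcium channels and vesicles at the release site and is the RIM gene tied to inner HC release. Its log2 signals were 7.42, 6.94 and 7.07 with DAPT, against 7.01, 6.64 and 6.90 in controls. Each DAPT array exceeded its own control while the groups overlapped, and the mean difference was 0.29 ± 0.08 (SE), or 1.22-fold (limma unadjusted p = 0.0125, adjusted p = 0.435). It missed the line without the block (unadjusted p = 0.102) and without experiment 2 (unadjusted p = 0.0637). A second *Rims2* transcript cluster differed by 0.07 (unadjusted p = 0.567), and the mean over both clusters differed by 0.18 (unadjusted p = 0.0621). *Rims1*, the main RIM gene of many central synapses, differed by 0.02 (95% interval −0.17 to 0.20).

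*Ctbp2* is a transcriptional corepressor gene whose alternative start yields Ribeye, and the array cluster read here was not resolved between these products. Its log2 signals were 9.04, 9.34 and 9.02 with DAPT, against 9.47, 9.51 and 9.58 in controls. All DAPT arrays lay below all control arrays. The mean difference was −0.39 ± 0.10 (SE), a linear signal at 0.763 of control (limma unadjusted p = 0.00831, adjusted p = 0.39), and it stayed past the unadjusted line without the block (unadjusted p = 0.0107) but not in the plain paired comparison. The other 4 clusters of the gene differed by −0.04, −0.26, 0.00 and −0.43, with unadjusted p of 0.633, 0.373, 0.988 and 0.0631. Averaged over all its clusters *Ctbp2* differed by −0.22 (unadjusted p = 0.0581).

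*Lin7a* encodes a PDZ scaffold of the complex with CASK and MINT1 that sits at neuronal presynaptic and epithelial basolateral membranes. Its log2 signals were 6.77, 6.97 and 7.14 with DAPT, against 7.27, 7.20 and 7.38 in controls, and the groups did not overlap. The mean difference was −0.33 ± 0.09 (SE), a signal at 0.796 of control (limma unadjusted p = 0.0106, adjusted p = 0.414), and it passed the line without the block (unadjusted p = 0.027) and without each experiment in turn, but not in the plain one-way and plain paired comparisons, which pool no variance across genes. The gene is in a table that the study drew from these arrays, so its direction is no independent evidence. The Notch pathway and pro-sensory genes of the SC list were lower in the same arrays, and their part in the *Lin7a* and *Ctbp2* differences was not tested.

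The large ribbon and active zone scaffolds bassoon and piccolo, which anchor ribbons and organize the release site, did not pass the line. *Bsn* had log2 signals of 7.70, 7.80 and 7.86 with DAPT, against 7.71, 7.65 and 7.77 in controls, and differed by 0.08 (limma unadjusted p = 0.355, adjusted p = 0.877). *Pclo* had signals of 7.21, 7.06 and 7.04 with DAPT, against 7.47, 6.96 and 6.83 in controls, and differed by 0.02 (limma unadjusted p = 0.867, adjusted p = 0.987). For *Pclo* experiment 1 ran opposite to the other experiments, at −0.25 against 0.10 and 0.21, and the mean turned to −0.01 after a second quantile normalization.

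**Figure D3:**
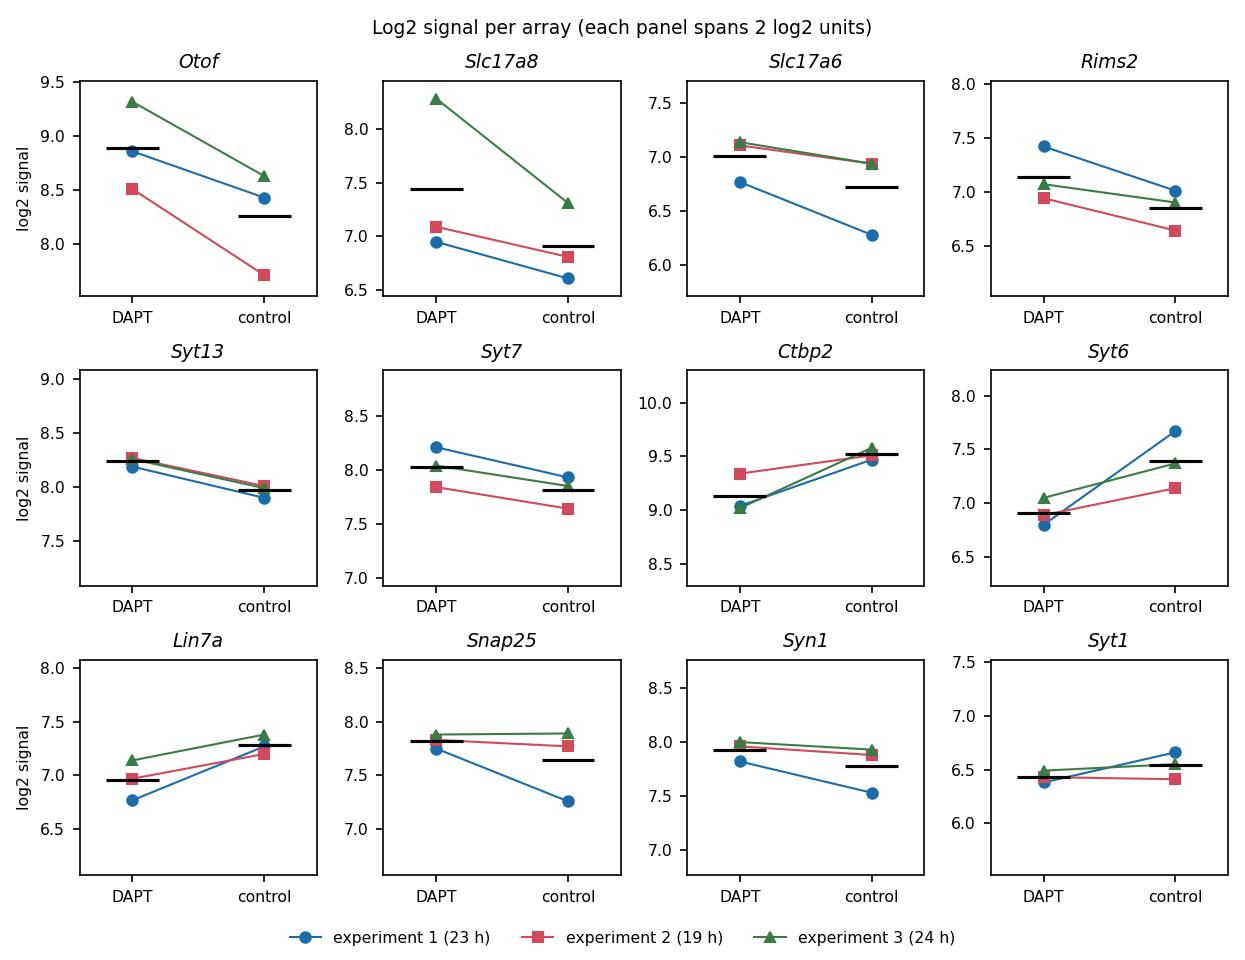
Log2 signal of the 9 nominally different genes and of *Snap25*, *Syn1* and *Syt1* on the 6 arrays, DAPT left and control right, with lines joining the arrays of 1 experiment and black bars at the group means. In *Otof*, *Slc17a8* and *Slc17a6* the experiments stand apart by more than DAPT and control do, whereas in *Syt13*, *Ctbp2*, *Syt6* and *Lin7a* the groups do not overlap.

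Synaptotagmins carry calcium-binding domains and, in several members, trigger vesicle fusion. Of the 10 synaptotagmin genes among the members, 2 (20%) were nominally higher and 1 (10%) nominally lower with DAPT. These shares stand beside 5.27% and 2.59% of all genes. *Syt13*, an atypical member without calcium-binding residues, had log2 signals of 8.19, 8.27 and 8.26 with DAPT, against 7.90, 8.01 and 7.99 in controls. The groups did not overlap and the experiments were the most alike of the nominal genes, with differences of 0.29, 0.26 and 0.28. The mean was 0.28 ± 0.07 (SE), or 1.21-fold (limma unadjusted p = 0.009, adjusted p = 0.397). It passed the line without the block (unadjusted p = 0.0131) and just missed it without experiment 2 (unadjusted p = 0.0515).

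*Syt7*, a slow sensor of high calcium affinity that acts in vesicle replenishment and asynchronous release, had log2 signals of 8.21, 7.84 and 8.04 with DAPT, against 7.93, 7.64 and 7.85 in controls. Each DAPT array exceeded its control, the groups overlapped, and the mean difference was 0.22 ± 0.07 (SE), or 1.17-fold (limma unadjusted p = 0.0239, adjusted p = 0.523). It missed the line without the block (unadjusted p = 0.129) and whenever any experiment was left out (unadjusted p = 0.0645, 0.0938 and 0.0673 without experiments 1, 2 and 3).

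*Syt6*, a synaptotagmin known from the sperm acrosome reaction, had log2 signals of 6.80, 6.89 and 7.05 with DAPT, against 7.67, 7.14 and 7.37 in controls. All DAPT arrays lay below all controls, with the widest gap in experiment 1. The mean difference was −0.48 ± 0.14 (SE), a signal at 0.717 of control and the most negative difference of the 49 members (limma unadjusted p = 0.0132, adjusted p = 0.437). It was −0.28 without experiment 1 and still past the line (unadjusted p = 0.0211), as it was without the block (unadjusted p = 0.0143), but not in the plain paired comparison.

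The windows of *Syt6* and *Ctbp2* are shown because both genes were nominally lower and hold a match to the RBP-J core, again with matches in capitals.
Syt6, chr3:103575876-103576125, plus strand: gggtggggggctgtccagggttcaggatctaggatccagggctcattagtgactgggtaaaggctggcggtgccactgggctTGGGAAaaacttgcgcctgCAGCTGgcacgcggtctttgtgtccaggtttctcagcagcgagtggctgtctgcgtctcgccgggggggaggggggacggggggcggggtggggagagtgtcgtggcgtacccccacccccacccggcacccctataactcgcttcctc
Ctbp2, chr7:133081861-133082110, minus strand: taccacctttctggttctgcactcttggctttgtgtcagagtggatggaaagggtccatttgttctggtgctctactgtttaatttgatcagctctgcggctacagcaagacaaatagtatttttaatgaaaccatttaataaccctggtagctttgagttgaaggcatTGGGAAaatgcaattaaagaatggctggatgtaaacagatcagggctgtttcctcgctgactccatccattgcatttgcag
In this *Syt6* window, 1 of 3 for that gene, TGGGAA begins 168 and CAGCTG 149 bases before the start, and in the *Ctbp2* window TGGGAA begins 81 bases before it. Of the other *Syt6* windows 1 also holds a match to the RBP-J core, TTCCCA, which begins 250 bases before its start. The core or its complement lies in 9 member windows (16.4%), beside 21.6% of all windows. The window of the other *Ctbp2* start holds none of the motifs. The windows of *Lin7a*, the remaining nominally lower gene, hold no match to the RBP-J core. They hold the E-boxes CATCTG and CAGCTG, which begin 110 and 211 bases before their starts. Of the 11 windows of the 5 nominal genes with a window, 8 hold at least 1 of the motifs. Beside them stand 41.3% of all windows and 24 of 55 member windows (43.6%). Some of the 11 windows overlap, and overlapping *Syt6* windows share the same CAGCTG, so the windows are not independent.

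Among the fast neuronal sensors *Syt1* had log2 signals of 6.38, 6.43 and 6.49 with DAPT, against 6.66, 6.41 and 6.55 in controls. It differed by −0.11 (limma unadjusted p = 0.277, adjusted p = 0.842), with the gap in experiment 1 alone. *Syt2*, the sensor of many auditory brainstem synapses, differed by 0.12 (95% interval −0.11 to 0.35). The other synaptotagmins *Syt3*, *Syt4*, *Syt5*, *Syt9* and *Syt11* had differences of 0.03, 0.18, 0.17, 0.06 and −0.02, none past the line.

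SNAREs form the core fusion complex, and none of the 6 measured here passed the line. *Snap25*, the neuronal plasma membrane SNARE, had log2 signals of 7.75, 7.83 and 7.88 with DAPT, against 7.26, 7.77 and 7.89 in controls. Only the control of experiment 1 stood apart, so that the differences were 0.50, 0.06 and −0.01 and the mean 0.18 (limma unadjusted p = 0.168, adjusted p = 0.783). *Stx1a* had signals of 8.04, 8.11 and 8.16 with DAPT, against 7.86, 8.19 and 8.25 in controls, with a mean difference of 0.00 (95% interval −0.22 to 0.22).

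*Vamp2*, the vesicular SNARE of neurons, had log2 signals of 10.56, 9.84 and 9.34 with DAPT, against 10.12, 9.99 and 9.75 in controls. The DAPT arrays spread more widely than the controls, from the highest to the lowest of the 6, and the differences of 0.44, −0.15 and −0.41 averaged to −0.04 (limma unadjusted p = 0.823, adjusted p = 0.983). *Vamp3* and *Snap23*, SNAREs of general membrane traffic, also ran upward in experiment 1 and downward in the others, at 0.41, −0.29 and −0.17 for *Vamp3* and 0.15, −0.17 and −0.41 for *Snap23*. *Vamp4*, of endosomal traffic, differed by −0.09. The recycling factors *Nsf* and *Napa*, which take used SNARE complexes apart, differed by 0.04 and 0.00, and *Snap91*, a clathrin adaptor of vesicle retrieval, by 0.05.

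Complexins clamp and promote fusion of primed vesicles, and none of their 3 measured genes passed the line. *Cplx1*, *Cplx2* and *Cplx4* had differences of 0.06, 0.01 and −0.07. The 6 arrays of *Cplx2* lay between 8.41 and 8.49. The MUNC13 priming factors gave 0.05 for *Unc13a*, −0.18 for *Unc13b* and 0.15 for *Unc13c*. *Unc13b* was lower in all 3 experiments, at −0.23, −0.14 and −0.16, and lay just outside the line (limma unadjusted p = 0.0507, adjusted p = 0.634), which it crossed under several other settings.

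Vesicle membrane proteins and synapsins had differences above 0 that did not pass the line. *Syp*, the abundant vesicle protein synaptophysin, had log2 signals of 7.86, 7.78 and 7.63 with DAPT, against 7.42, 7.63 and 7.77 in controls, a difference of 0.15 (limma unadjusted p = 0.26, adjusted p = 0.834). *Syn1*, a phosphoprotein that holds vesicles in the reserve pool, had signals of 7.82, 7.96 and 8.00 with DAPT, against 7.53, 7.88 and 7.93 in controls, and differed by 0.15 (limma unadjusted p = 0.125, adjusted p = 0.741). For both genes the control of experiment 1 was the lowest array. The vesicle glycoproteins *Sv2a*, *Sv2b* and *Sv2c* differed by 0.14, 0.15 and 0.05, and *Syn2* and *Syn3* by 0.07 and 0.01.

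RAB3 proteins guide vesicles to the active zone, and rabphilin (*Rph3a*) binds them. *Rab3a*, *Rab3b* and *Rab3c* differed by 0.02, 0.02 and −0.23, the last with opposite signs between experiments. *Rph3a* had no overlap between groups, with 8.42, 8.20 and 8.20 in DAPT arrays, against 7.97, 8.06 and 8.18 in controls, but the gap was 0.02 in experiment 3 and the difference of 0.21 did not pass the line (limma unadjusted p = 0.0994, adjusted p = 0.709). With *Syt13* it was 1 of 2 members (background 4.94% of all genes) whose DAPT arrays all exceeded all controls. For 3 members, *Ctbp2*, *Syt6* and *Lin7a*, all DAPT arrays lay below all controls, beside 2.35% of all genes.

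The ribbon synapse genes and the neuronal vesicle genes were set side by side within experiments. Of 9 ribbon synapse genes 3 (33.3%) were nominally higher and 1 (11.1%) nominally lower with DAPT. The 3 were *Otof*, *Slc17a8* and *Rims2*, and none of them passed the line without the block. *Otof* also stands in a gene table that the study drew from these arrays. Of 24 neuronal vesicle genes 1 (4.17%) was nominally higher, *Slc17a6*, which missed the line without the block too, and 0 lower. Over all genes the shares were 5.27% higher and 2.59% lower. The median differences in experiments 1, 2 and 3 were 0.06, 0.10 and 0.17 for ribbon synapse genes and 0.09, 0.06 and 0.01 for neuronal vesicle genes, with overall medians of 0.08 and 0.05. The ribbon list was spread from −0.39 to 0.64 and the neuronal list from −0.23 to 0.29. A difference between the lists was not tested. The ribbon median lay below the 0.61 of the HC markers. Several of those markers stand in a gene table that the study drew from these arrays, so 0.61 is no independent yardstick. The summed linear signal of the neuronal vesicle genes was 5541 to 6380 with DAPT, against 5526 to 5700 in controls, so the ranges overlapped. Of these genes 7 (29.2%) were higher in all 3 experiments, as were 7 of 22 neuronal markers (31.8%), beside 19.1% of all genes. The remaining 16 members, with 2 nominally higher and 2 nominally lower (12.5% each), had a median of −0.01.

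**Figure D4:**
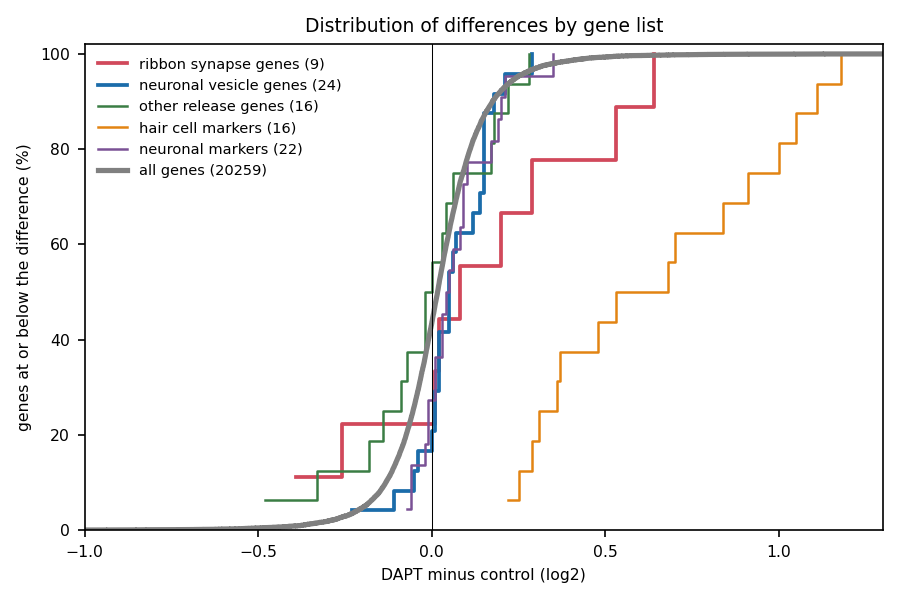
Cumulative share of genes (%) at or below each log2 difference, DAPT minus control, for the 3 member lists, the HC and neuronal markers and all 20259 genes. Differences above 0 are held by 20 of 24 neuronal vesicle genes and 16 of 22 neuronal markers, beside 11448 of all genes, with medians of 0.05 and 0.04 beside 0.02. The ribbon synapse genes extend to 0.64, and every HC marker lies to the right of 0.

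The rest of the release pathway was read from 101 further genes listed by function, 95 of them measured. Of these 7 (7.37%) were nominally higher and 2 (2.11%) nominally lower with DAPT, beside the same 5.27% and 2.59% of all genes, and their median difference was 0.03. The 6 largest of the nominally higher differences were 0.50 for *Apba1*, which encodes the MINT1 partner of CASK and LIN7, 0.46 for *Syt10*, 0.42 for *Rimbp2*, which links RIM proteins to calcium channels, 0.38 for the adhesion receptor *Nrxn3*, 0.24 for *Sytl2* and 0.22 for *Ap3b2*. Both lower genes encode J-domain cochaperones, auxilin (*Dnajc6*) at −0.44, which uncoats clathrin-coated vesicles, and the cysteine string protein (*Dnajc5*) at −0.26, which chaperones SNAP-25.

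*Apba1* and *Rimbp2* are partners of members described above. *Apba1* had log2 signals of 8.31, 8.09 and 8.74 with DAPT, against 7.91, 7.66 and 8.08 in controls (limma unadjusted p = 0.00138, adjusted p = 0.266), without overlap. *Rimbp2* had 8.41, 7.77 and 7.89 with DAPT, against 7.94, 7.46 and 7.41 in controls (limma unadjusted p = 0.00191, adjusted p = 0.302), with overlap. *Dnajc6* had 7.01, 7.34 and 7.19 with DAPT, against 7.62, 7.76 and 7.48 in controls (limma unadjusted p = 0.00307, adjusted p = 0.333), without overlap. *Cacna1d*, the calcium channel that triggers HC release, differed by 0.28 and did not pass the line (limma unadjusted p = 0.0729, adjusted p = 0.676), being −0.07 in experiment 1 and 0.39 and 0.53 in experiments 2 and 3.

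Some members have further transcript clusters whose differences depart from the values above. In a fit over 25539 clusters, 3 of 16 further clusters of 9 members passed an unadjusted p under 0.05, all higher with DAPT, beside 4.41% of all clusters in that direction. A second cluster of *Syt11*, a synaptotagmin that does not bind calcium, had log2 signals of 6.70, 6.76 and 6.46 with DAPT, against 6.25, 5.60 and 5.61 in controls, a difference of 0.82 (limma unadjusted p = 0.00304, adjusted p = 0.508), where the brighter cluster gave −0.02. Another, dim cluster of *Pclo*, with a mean signal of 4.06, differed by 0.50 (unadjusted p = 0.0176) and a second cluster of *Unc13a* by 0.26 (unadjusted p = 0.0332), where the brighter clusters gave 0.02 and 0.05. Which transcripts these clusters measure was not tested.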

How the data were processed

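RNA of 3 DAPT and 3 control pools of cochlear epithelium was hybridized to exon arrays. The authors summarized the probes in Partek with RMA and quantile normalization, and deposited log2 signals per transcript cluster. The submitters' processing notes name mm9, and no array coordinates were used. These values were tested as deposited. Summaries by quantile normalization limit large global shifts, and 6 arrays set the precision.

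Of 115830 clusters, 25539 had 1 gene in the platform annotation, 2300 several and 87991 none, and 24941 received a current symbol through a GRCm38.p6 gene table. The cluster with the highest mean stood for each of 20259 genes. Signals of different genes were not compared. Array medians were 6.2968 to 6.3637, and 25 of the 49 members lay above the median signal of genes, 7.7849. There were 0 columns of no listed sample.

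The comparison used lmFit and eBayes of limma 3.58.1 in R 4.3.3, two-sided, blocked on experiment, with p-values adjusted over all genes by the Benjamini-Hochberg method. The study names a one-way model, which was run as an alternative. The pairing comes from the design, with 1 DAPT and 1 control pool per experiment. Deviations from group means correlated across genes, which are not independent, at 0.5555, 0.4344 and 0.5132 within experiments and at most 0.0092 between them. Such deviations cancel out within each group, so the low values between experiments follow in part from the calculation. The fit was also run on simulated data with independent noise and no experiment effect, which cannot test the use of the block. Alternatives were no block, a trend and robust prior, a second quantile normalization, median centring, a filter at the median signal, the mean of a gene's clusters, plain one-way and paired comparisons and leaving out each experiment.

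The members and lists were chosen with earlier results of these data known. Array values are given for members past the unadjusted line, ribbon synapse genes and leading neuronal members, with others by their differences, and at most 6 further release genes were named in each direction. *Rph3a* and *Cplx2* values and *Cacna1d* were added after they had been seen. Promoter sequences are from RefSeq (GRCm38.p6). Python 3.11.15, pandas 2.3.3, numpy 2.4.6 and matplotlib 3.10.9 were used.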

Additional observations from a re-analysis of the deposited data

How the results depend on the processing

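Over 20 members given with array values, 208 values were computed in 11 settings, of which 168 kept their direction and their side of the unadjusted line, 24 kept direction but fell short of it, 5 newly passed it and 11 changed sign. The 6 nominally higher members became 1 without the replicate block, 1 in the plain one-way comparison and 3 with the filter at the median signal, and leaving out 1 experiment gave 3 to 5, the lowest without experiment 2. The filter left *Slc17a8*, *Rims2* and *Slc17a6* out of the fit. The 3 nominally lower members became 5 with the trend and robust prior, 5 after a second quantile normalization, 5 after median centring and 1 in the plain paired comparison, where *Unc13b* passed and *Syt6*, *Ctbp2* and *Lin7a* did not, and 4 to 6 without 1 experiment, the highest without experiment 1. *Syt13* alone remained higher without the replicate block, beside the same 3 lower genes. No member passed an adjusted p of 0.05 in any of the 11 settings, although 6 genes overall did with the trend and robust prior, 6 with the mean of clusters and 26 with the filter. Of the further release genes the 7 higher became 3 without the block and 3 in the plain one-way comparison, and 4 to 10 without 1 experiment, while the 2 lower became 1, 1 and 1 to 2. The 14 members higher in every experiment became 8 with the signal filter, which tests fewer genes, and 16 to 22 over fewer experiments. The ribbon synapse median of 0.08 was 0.20 with the filter, 0.18 with the mean of clusters and 0.04 to 0.15 without 1 experiment. The causes of the other shifts were not tested.

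Sign changes were confined, among those 20 members, to genes near 0. *Cabp4* was −0.01 after a second quantile normalization, −0.01 after median centring and −0.03 without experiment 1, and *Stx1a* was −0.01, −0.01 and −0.09 in the same settings. *Pclo* was −0.01 after the second quantile normalization, −0.02 without experiment 2 and −0.08 without experiment 3, and *Vamp2* was −0.28, 0.02 and 0.15 without experiments 1, 2 and 3.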

Other observations

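The labels give culture times of 23, 19 and 24 hours for experiments 1, 2 and 3, other descriptions of the study differ from these, and culture time and experiment cannot be told apart. *Otof* was lowest in the 19 hour experiment in both groups, at 8.51 with DAPT and 7.71 in control.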
